A study of Mus musculus with 6 samples.

Results

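The genes described here are the ligands, receptors, co-receptors, inhibitors and best-known targets of Wnt signalling in embryonic mouse submandibular glands. They were chosen by symbol, on a list drawn up with earlier results of these data known, from the Wnt, Fzd, Sfrp, Dkk and Rspo families and 20 further named genes (Lrp5, Lrp6, Lgr4, Lgr5, Lgr6, Axin1, Axin2, Apc, Lef1, Tcf7, Tcf7l1, Tcf7l2, Nkd1, Znrf3, Rnf43, Frzb, Wif1, Porcn, Ror1 and Ror2), which gave 61 of the 24067 genes measured. Gland RNA from ICR mouse embryos at embryonic day 13 was sequenced as 3 Blebbistatin libraries, from glands given blebbistatin, and 3 Control libraries. Blebbistatin inhibits non-muscle myosin II, the motor that tenses the actin network of non-muscle cells, by acting on its ATPase, and the comparison asks which transcripts differ when it is present. Both groups share the strain, the age and the tissue, and no engineered allele is named. For the dose, duration, vehicle and number of glands in a library, the sources used here give nothing. The series title speaks of epithelial buds, while the tissue label names the gland.

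Wnt proteins are lipid-modified signals that bind Frizzled receptors. With the co-receptors Lrp5 and Lrp6 they stabilise beta-catenin, which joins Tcf and Lef factors on target genes, whereas with Ror1, Ror2 or Ryk some of them act on the cytoskeleton and cell polarity without beta-catenin. In the developing submandibular gland, beta-catenin activity is best known in ducts, and Sfrp1, a secreted antagonist, is known from the end buds.

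Levels are in FPKM, fragments scaled by transcript length and by the mapped fragments of the library. Depth, estimated from the smallest step between values, was 27200000 to 27900000 fragments in Blebbistatin libraries and 27900000 to 32700000 fragments in Control libraries. All 12 epithelial markers reached a mean of 1 FPKM, and their summed level was 1470 to 1920 FPKM in Blebbistatin libraries and 1540 to 1920 FPKM in Control libraries. Of 12 mesenchymal markers 6 did so. Their sum was 350 to 394 FPKM in Blebbistatin libraries and 297 to 369 FPKM in Control libraries, most of it Vim, while Col1a1 lay at 0.588 to 1.02 FPKM in Blebbistatin libraries and 0.843 to 3.06 FPKM in Control libraries, and Tcf21 was listed at 0 throughout. The 8 end bud markers summed to 511, 622 and 582 FPKM in Blebbistatin libraries, against 785, 810 and 732 FPKM in Control libraries. Cldn10, Kit, Aqp5, Etv5 and Sox10 were lower in every Blebbistatin library than in any Control library, Sox9 and Bhlha15 overlapped, and Fgfr2 lay the other way, at 47.5, 40.5 and 44.0 FPKM in Blebbistatin libraries and 38.7, 35.1 and 37.3 FPKM in Control libraries. Blebbistatin 1 had the lowest end bud sum of the 6 libraries. Erbb3, a receptor gene of glial and other cells, stood at 51.6, 54.3 and 53.4 FPKM in Blebbistatin libraries, against 74.5, 89.8 and 77.8 FPKM in Control libraries. Marker sums were 1.42 to 2.68 FPKM in Blebbistatin libraries and 0.495 to 3.20 FPKM in Control libraries for nerve, and 1.88 to 2.79 FPKM in Blebbistatin libraries and 1.90 to 3.36 FPKM in Control libraries for leukocytes. The erythrocyte sum was 1.04, 3.91 and 56.0 FPKM in Blebbistatin libraries and 218, 1.81 and 199 FPKM in Control libraries. In bulk RNA, fewer cells of a type and less RNA per cell cannot be told apart. No label states whether the 3 libraries of 1 group are from different litters or cultures, so a p-value here measures only their spread, which may be technical.

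Of the 61 genes, 30 had a mean of at least 1 FPKM over the 6 libraries and were tested, 13 lay between 0.1 and 1 FPKM and 18 below 0.1 FPKM, with Wnt2 and Sfrp4 at 0 in all 6. The tested genes were 5 of 19 ligands, 8 of 10 Frizzled receptors, both Lrp and both Ror receptors, 1 of 7 R-spondins and Lgr receptors, 3 of 10 secreted inhibitors, Porcn, all 3 of Znrf3, Rnf43 and Nkd1, 2 of the 3 Axin and Apc genes, and 3 of 4 Tcf and Lef factors. The sequenced RNA thus held many receptors and few ligands above 1 FPKM. The marker lists had a median mean of 82.2 FPKM for epithelium and 1.05 FPKM for mesenchyme. The count of ligands thus does not speak for the mesenchyme of the gland. Summed over each class, Frizzled transcripts stood at 235, 233 and 218 FPKM in Blebbistatin libraries and 242, 242 and 225 FPKM in Control libraries. The 19 ligands summed to 93.7, 58.7 and 58.5 FPKM in Blebbistatin libraries and 69.3, 41.8 and 49.6 FPKM in Control libraries.

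**Figure D1:**
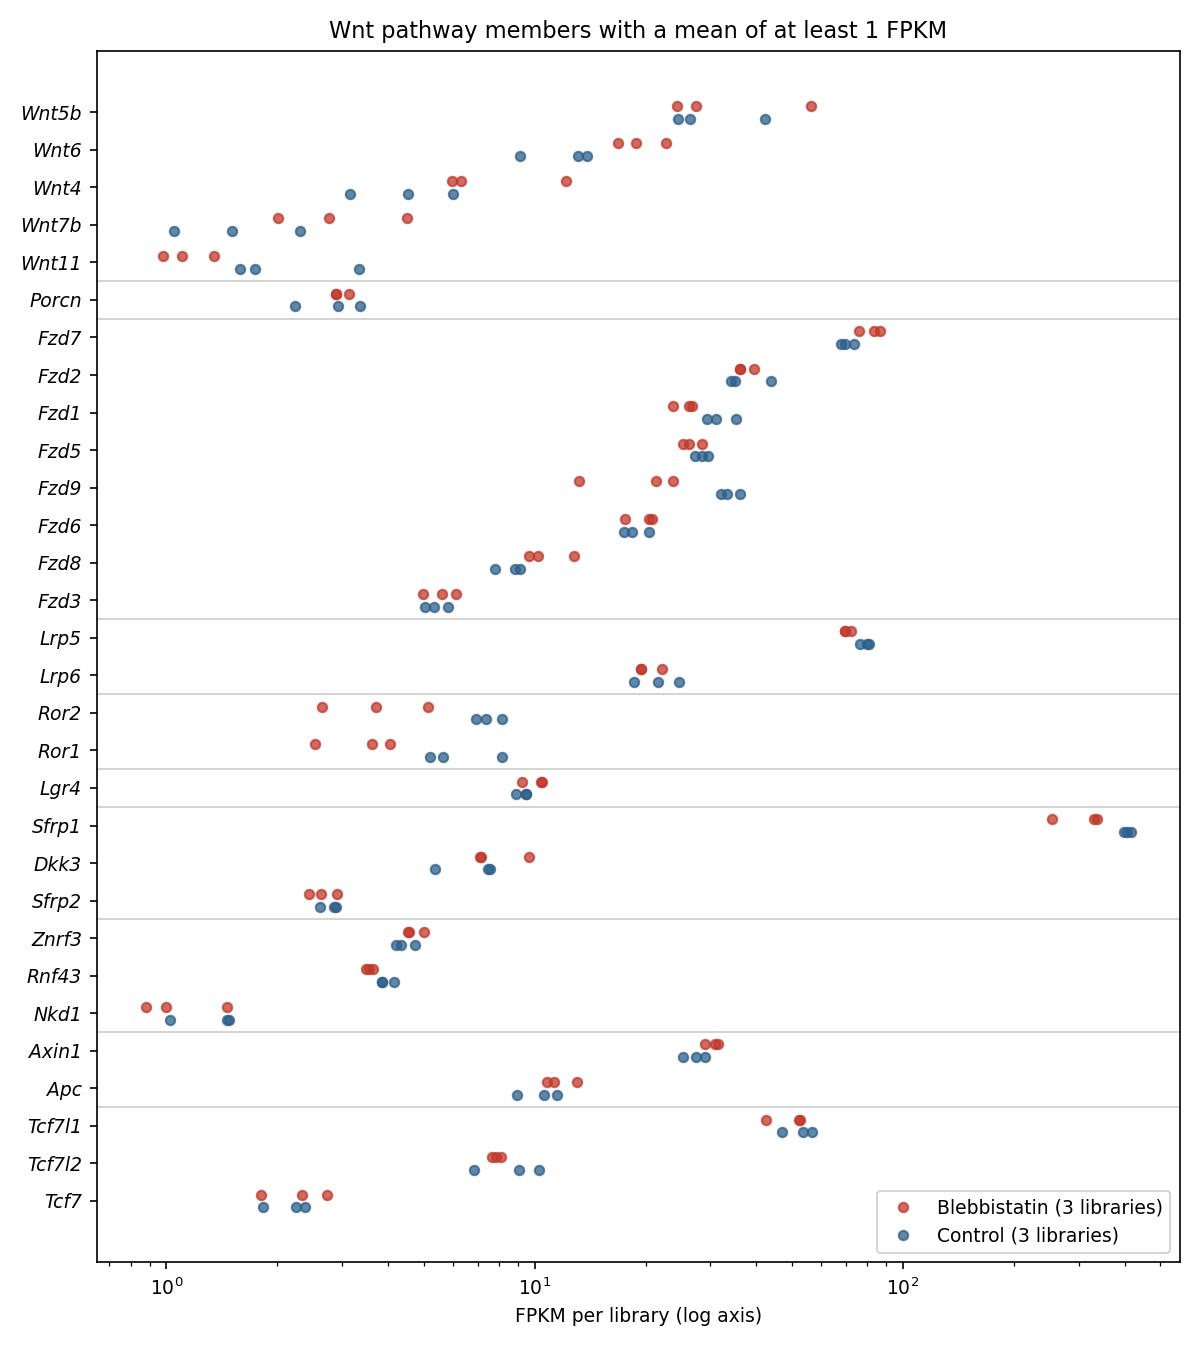
Level of each of the 30 tested Wnt pathway genes in every library, in FPKM on a log axis, with 3 Blebbistatin libraries in red above 3 Control libraries in blue and grey lines between role classes. Sfrp1 is the highest of all, and the Ror receptors, Fzd9 and Wnt11 lie to the left in all 3 Blebbistatin libraries.

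None of the 30 tested genes passed the test across all genes (limma on log2(FPKM + 1), Benjamini-Hochberg adjusted p under 0.05), which 9 of 11540 genes (0.078%) passed; the lowest adjusted p of a Wnt gene was 0.125, for Ror2. At an unadjusted p under 0.05 there were 11 of 30 (36.7%), 5 with a higher mean in Blebbistatin libraries (Wnt4, Wnt6, Wnt7b, Fzd7 and Fzd8) and 6 with a lower one (Ror1, Ror2, Fzd1, Fzd9, Sfrp1 and Wnt11). Over all genes tested the share was 9.36%, made up of 4.46% with a higher and 4.9% with a lower mean. The 3 Blebbistatin values did not overlap the 3 Control values for 12 of the 30 (40.0%), 4 above and 8 below, against 14.3% of all genes tested, 7.48% above and 6.8% below. The median log2 fold change of the 30 was 0.02, against 0.01 for all genes, and the median of its size was 0.15, against 0.08. Without Blebbistatin 1, without Control 2 or without Control 3, 7 of the 30 rather than 11 had an unadjusted p under 0.05. The share of all genes in those fits is not given here, so these counts have no background beside them. Fold changes below are Blebbistatin minus Control on the log2(FPKM + 1) scale, which understates the change of low genes.

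**Figure D2:**
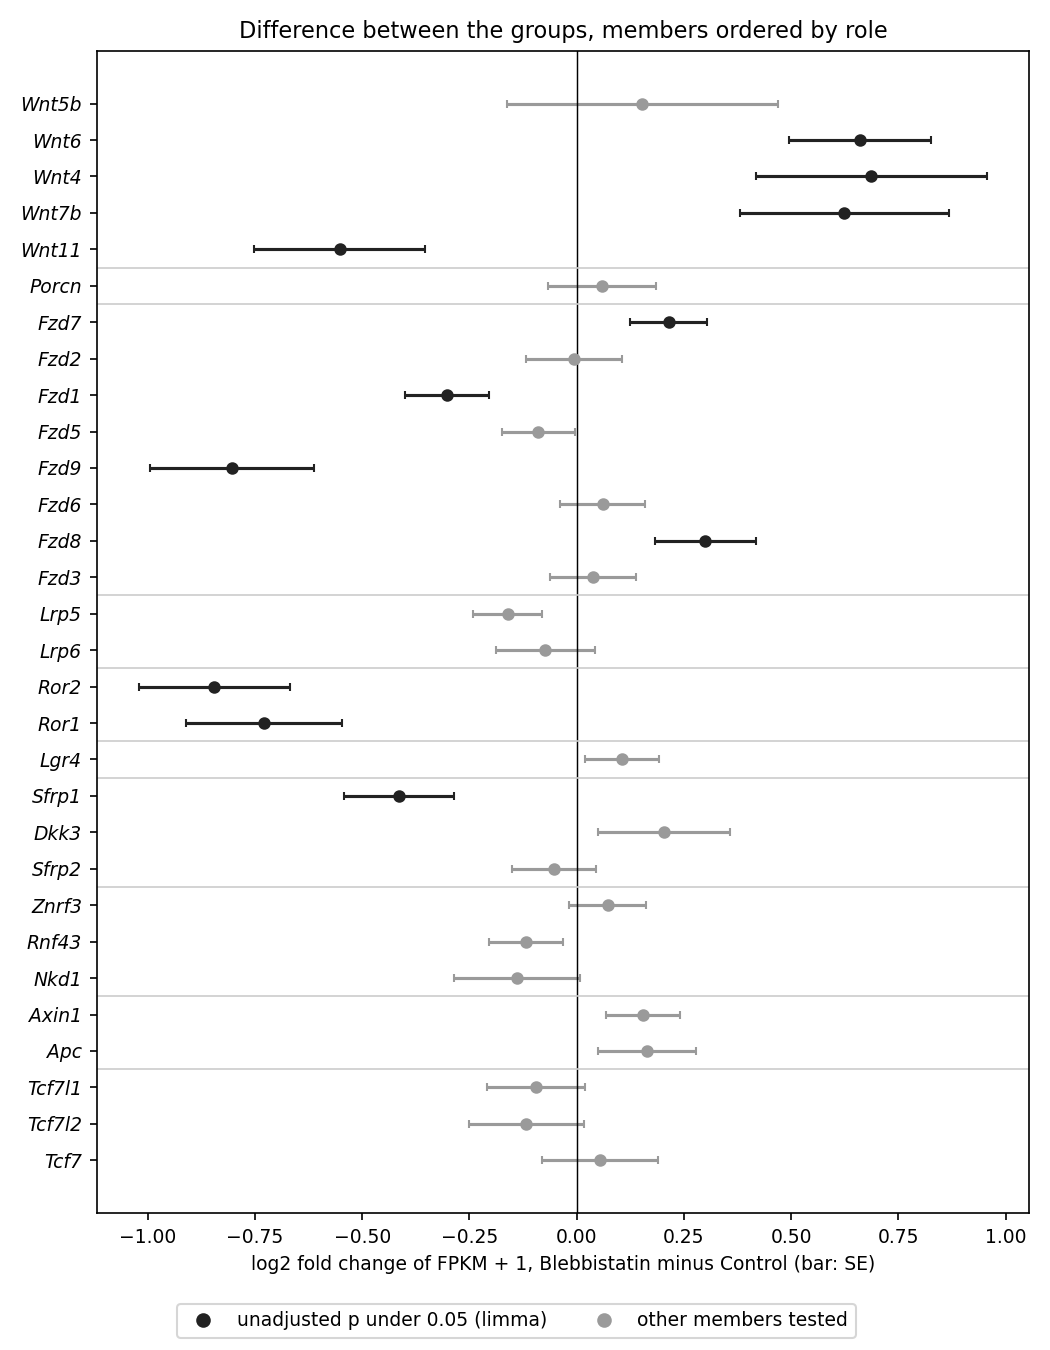
Log2 fold change of FPKM + 1, Blebbistatin minus Control, with its standard error, for the 30 tested genes in order of role; black points have an unadjusted limma p under 0.05. Ror2, Fzd9 and Ror1 lie farthest to the left and Wnt4, Wnt6 and Wnt7b farthest to the right, and none passed the adjusted threshold.

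Among the 5 tested ligands, 3 had a higher and 1 a lower mean in Blebbistatin libraries at an unadjusted p under 0.05. That is 80.0%, against 9.36% of all genes tested, 4.46% higher and 4.9% lower. The most abundant ligand, Wnt5b, overlapped between the groups. Wnt6, an epithelial ligand of ectodermal organs, stood at 16.8, 18.9 and 22.8 FPKM in Blebbistatin libraries, against 13.1, 9.14 and 13.9 FPKM in Control libraries. Every Blebbistatin value lay above every Control value. Wnt6 had a log2 fold change of 0.66 (SE 0.17), with a limma adjusted p of 0.190.

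Wnt4, a ligand that acts in kidney and mammary epithelium, measured 12.2, 5.95 and 6.32 FPKM in Blebbistatin libraries and 6.01, 3.15 and 4.54 FPKM in Control libraries. The groups overlapped narrowly, and Blebbistatin 1 was far above the other 2 Blebbistatin libraries. Control 1 was likewise the highest Control library. Its log2 fold change was 0.69 (SE 0.27, limma adjusted p 0.450), and 0.39 without Blebbistatin 1. Wnt7b, a branching ligand of lung epithelium, measured 4.49, 2.76 and 2.01 FPKM in Blebbistatin libraries and 2.30, 1.51 and 1.05 FPKM in Control libraries. Here too the groups overlapped, with the highest Blebbistatin value in Blebbistatin 1 and the highest Control value in Control 1. A fit with the replicate number as a block is given at the end. Wnt7b had a log2 fold change of 0.62 (SE 0.24, limma adjusted p 0.445), and 0.39 without Blebbistatin 1. Its exons overlap those of AU022754 on the opposite strand, which had at most 0.283 FPKM in any library, and the sources used here do not say whether strand was kept.

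Wnt11, a mostly beta-catenin-independent ligand, was the 1 tested ligand with a lower mean, at 1.35, 1.10 and 0.977 FPKM in Blebbistatin libraries, against 3.34, 1.58 and 1.74 FPKM in Control libraries. The groups did not overlap, and Control 1 lay well above the other 2 Control libraries. Wnt11 had a log2 fold change of -0.55 (SE 0.20, limma adjusted p 0.384), or -0.32 without Control 1. Control 1 also had the highest Col1a1, 3.06 FPKM. Col1a2, Col3a1, Lum, Dcn, Pdgfra, Pdgfrb, Twist1 and Twist2 were highest there too. Postn, at 10.7 FPKM, was lowest there, and Vim, at 337 FPKM, was below Blebbistatin 1 and 2. The mesenchymal marker sum was 369 FPKM in Control 1 and 394, 375 and 350 FPKM in Blebbistatin libraries. Control 1 had the highest endothelial marker sum, 15.1 FPKM. Of that sum 14.4 FPKM was Egfl7. Cdh5 and Emcn were also highest there, at 0.0441 and 0.0541 FPKM. Pecam1 and Tek, at 0.313 and 0.193 FPKM in Control 1, were lower in all 3 Control libraries than in any Blebbistatin library. The part of these markers in the Wnt11 value was not tested.

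Wnt5b, a beta-catenin-independent ligand, was the most abundant ligand, at 56.3, 27.5 and 24.4 FPKM in Blebbistatin libraries and 42.3, 24.5 and 26.4 FPKM in Control libraries. The high values were those of Blebbistatin 1 and Control 1, so the spread lay within the groups rather than between them. The log2 fold change of 0.15 (SE 0.32, limma adjusted p 0.991) became -0.21 without Blebbistatin 1. Krt5, a keratin of basal and ductal epithelium, was high in the same libraries, at 30.2, 14.3 and 11.9 FPKM in Blebbistatin libraries and 33.5, 14.3 and 14.8 FPKM in Control libraries. Krt15 was likewise highest in those 2 libraries of their groups, at 70.0, 27.4 and 43.7 FPKM in Blebbistatin libraries and 38.3, 15.6 and 19.7 FPKM in Control libraries. The part of this in the ligand values was not tested.

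With Wnt5b left out of the sum, the other 18 ligands together stood at 37.4, 31.2 and 34.0 FPKM in Blebbistatin libraries, against 27.0, 17.4 and 23.2 FPKM in Control libraries, with no overlap. Wnt5b itself made up 49.6% ± 9.47 of summed ligand FPKM in Blebbistatin libraries and 57.6% ± 3.99 in Control libraries (SD, n = 3 each). The sum of all 19 ligands overlapped between the groups, and Wnt5b was left out after its values were seen. Wnt6 made up 29.7% ± 10.7 in Blebbistatin libraries and 22.9% ± 4.70 in Control libraries.

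The remaining 14 ligands had means below 1 FPKM. Wnt10a, the neighbour of Wnt6 on chromosome 1 (Wnt6 at chr1:74771892-74785319 and Wnt10a at chr1:74792019-74804175, both on the plus strand of mm10), measured 1.02, 1.04 and 0.619 FPKM in Blebbistatin libraries and 0.792, 0.413 and 0.542 FPKM in Control libraries, with overlap. Wnt5a, a ligand of Ror2 and usually of mesenchymal origin, lay at 0.513, 0.673 and 0.598 FPKM in Blebbistatin libraries, below each of the 0.749, 0.754 and 0.701 FPKM of Control libraries. Wnt1, Wnt3, Wnt3a, Wnt7a, Wnt8a, Wnt8b and Wnt16 averaged below 0.1 FPKM. Porcn, which acylates Wnt proteins before secretion, was at 2.88, 3.14 and 2.88 FPKM in Blebbistatin libraries and 3.35, 2.24 and 2.92 FPKM in Control libraries, and the groups overlapped.

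**Figure D3:**
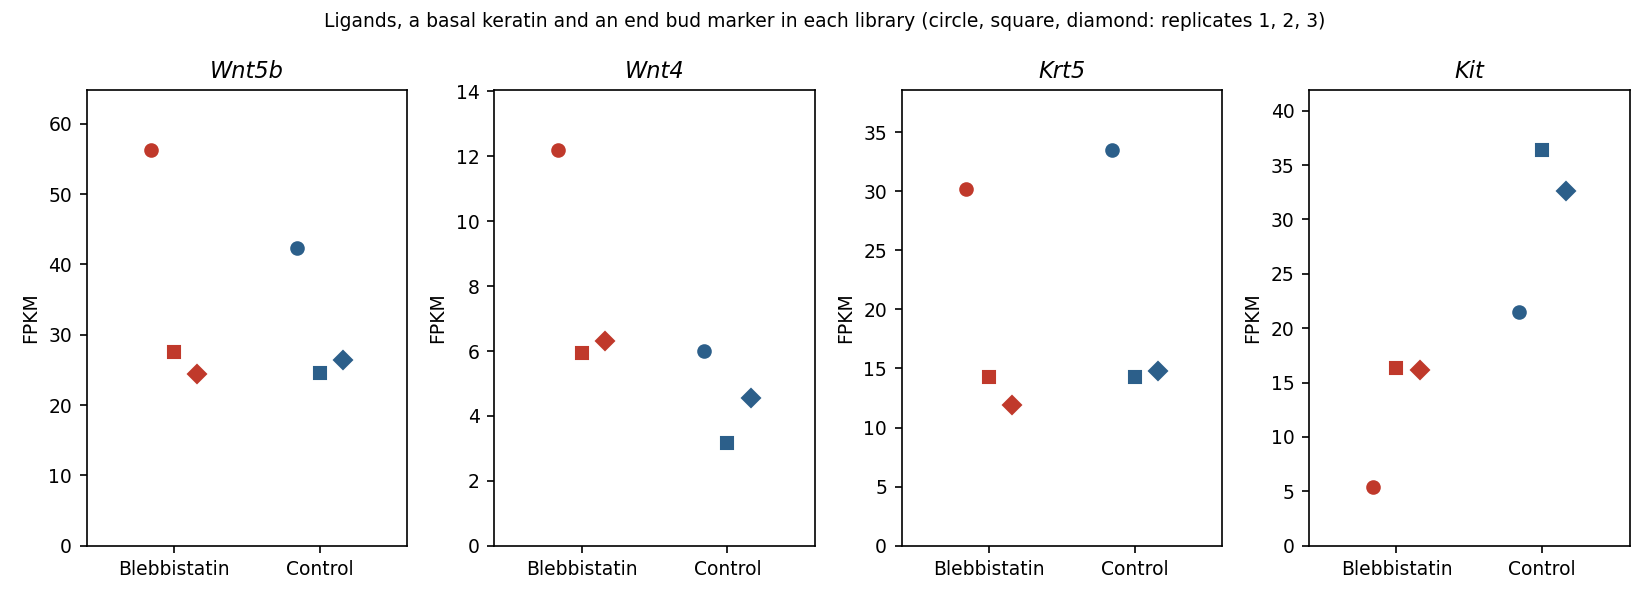
Wnt5b, Wnt4, the basal keratin Krt5 and the end bud marker Kit in FPKM in each library, Blebbistatin on the left and Control on the right, with circle, square and diamond for replicates 1, 2 and 3. Blebbistatin 1 and Control 1 are the 2 highest libraries for Wnt5b and Krt5, and Blebbistatin 1 has the lowest Kit, 5.38 FPKM; another end bud marker, Fgfr2, is highest there, at 47.5 FPKM.

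Of the tested genes Ror2 had the lowest unadjusted limma p, 0.001267, followed by Fzd9, 0.002806, and Ror1, 0.003765. Ror2, a receptor tyrosine kinase-like protein that binds Wnt5a (chr13:53109317-53286109, minus strand, mm10), stood at 2.65, 5.14 and 3.70 FPKM in Blebbistatin libraries, against 7.40, 8.16 and 6.94 FPKM in Control libraries. Its mean was 3.83 ± 1.25 FPKM in Blebbistatin libraries and 7.50 ± 0.61 FPKM in Control libraries (SD, n = 3 each), a ratio of 0.511. All 3 Blebbistatin values were below the lowest Control value. The log2 fold change was -0.84 (SE 0.18, limma adjusted p 0.125).

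Ror1, the other member of the family (chr4:100095791-100442545, plus strand, mm10), stood at 2.53, 4.06 and 3.62 FPKM in Blebbistatin libraries and 5.20, 8.15 and 5.64 FPKM in Control libraries. Again the groups did not overlap. The ratio of means was 0.538 and the log2 fold change -0.73 (SE 0.18, limma adjusted p 0.190). The sum of both Ror genes was 5.19, 9.20 and 7.33 FPKM in Blebbistatin libraries, against 12.6, 16.3 and 12.6 FPKM in Control libraries. Blebbistatin 1, with the lowest end bud marker sum, was also the lowest library for both genes, and in the other 2 Blebbistatin libraries the log2 fold change was -0.66 for Ror2 and -0.58 for Ror1. The part of the end bud markers in these values was not tested.

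The promoters of the Ror pair are shown because both genes were lower in the same libraries, and those of Fzd7 and Wnt11 because, of the 8 promoters found for genes at an unadjusted p under 0.05, these 2 held a Tcf/Lef word. They are the 250 bases before the RefSeq start of each gene, 5′ to 3′ on the strand of the gene, on GRCm38.p6, which is mm10. For Ror2 this start lies 15 bases from that of the deposited annotation, and for Ror1, Fzd7 and Wnt11 it is the same. The windows are chr13:53286125-53286374 on the minus strand for Ror2 and chr4:100095541-100095790 on the plus strand for Ror1. For Fzd7 and Wnt11 they are chr1:59481897-59482146 and chr7:98834862-98835111, both on the plus strand. Capitals mark a match to the word CTTTGAA, the word CTTTGAT, the word CTTTGTA or the word CTTTGTT on either strand.
Ror2: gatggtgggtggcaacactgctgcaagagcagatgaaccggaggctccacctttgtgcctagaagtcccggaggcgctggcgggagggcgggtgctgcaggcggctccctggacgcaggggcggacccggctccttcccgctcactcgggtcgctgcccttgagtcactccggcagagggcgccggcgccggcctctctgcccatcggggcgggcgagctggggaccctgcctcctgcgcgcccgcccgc
Ror1: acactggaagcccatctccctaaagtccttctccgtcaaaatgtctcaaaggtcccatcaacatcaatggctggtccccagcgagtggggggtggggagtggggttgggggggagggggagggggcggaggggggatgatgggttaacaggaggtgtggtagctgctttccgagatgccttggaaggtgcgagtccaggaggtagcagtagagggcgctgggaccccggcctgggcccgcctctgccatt
Fzd7: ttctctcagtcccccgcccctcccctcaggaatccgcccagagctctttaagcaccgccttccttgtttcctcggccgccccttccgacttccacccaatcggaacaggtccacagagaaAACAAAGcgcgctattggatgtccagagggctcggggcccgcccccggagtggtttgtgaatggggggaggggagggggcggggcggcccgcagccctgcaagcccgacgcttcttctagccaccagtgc
Wnt11: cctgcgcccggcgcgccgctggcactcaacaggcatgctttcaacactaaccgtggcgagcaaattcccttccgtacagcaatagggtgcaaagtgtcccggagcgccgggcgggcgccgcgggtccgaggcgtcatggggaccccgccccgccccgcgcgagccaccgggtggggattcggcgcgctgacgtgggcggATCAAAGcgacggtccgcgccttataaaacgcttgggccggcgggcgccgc
In Fzd7 the word begins 130 bases before the start and in Wnt11 51 bases before it; both are read on the strand opposite to the gene. Of the 40 Wnt genes with a promoter entry 3 held such a word, against 14.8% of 32851 promoter windows of the same length. A match describes these letters only. Fzd7 had the higher mean in Blebbistatin libraries and Wnt11 the lower.

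The Frizzled receptors, seven-pass receptors for Wnt proteins, had overlapping sums in the groups, while single genes lay on both sides. Of the 8 tested, 2 had a higher and 2 a lower mean at an unadjusted p under 0.05. That is 50.0%, against 9.36% of all genes tested, 4.46% higher and 4.9% lower. Fzd9, a receptor gene known from brain and bone (chr5:135248938-135251047, minus strand, mm10), stood at 13.2, 23.7 and 21.4 FPKM in Blebbistatin libraries, against 36.1, 33.2 and 32.1 FPKM in Control libraries. No Blebbistatin value reached the Control range, and Blebbistatin 1 was the lowest. The log2 fold change of Fzd9 was -0.80 (SE 0.19, limma adjusted p 0.170), and -0.56 without Blebbistatin 1.

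Fzd1 was lower by a smaller margin, at 26.3, 26.8 and 23.7 FPKM in Blebbistatin libraries and 31.0, 35.2 and 29.4 FPKM in Control libraries, without overlap (log2 fold change -0.30, SE 0.098, limma adjusted p 0.310). Fzd7, the most abundant Frizzled gene and a receptor of both Wnt branches, measured 86.5, 83.4 and 76.1 FPKM in Blebbistatin libraries and 69.7, 73.7 and 68.0 FPKM in Control libraries. These values did not overlap either (log2 fold change 0.21, SE 0.09, limma adjusted p 0.503). Fzd8 measured 12.8, 10.2 and 9.67 FPKM in Blebbistatin libraries and 9.15, 7.79 and 8.86 FPKM in Control libraries, all 3 Blebbistatin values lying above (log2 fold change 0.30, SE 0.12, limma adjusted p 0.449, and 0.19 without Blebbistatin 1).

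Expressed as a share of summed Frizzled FPKM, Fzd7 made up 35.9% ± 0.92 in Blebbistatin libraries and 29.8% ± 0.93 in Control libraries (SD, n = 3 each). Fzd9 made up 8.55% ± 2.54 in Blebbistatin libraries and 14.3% ± 0.59 in Control libraries. These shares restate the levels above on a relative scale, since the shares of 1 library sum to 100%.

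The other 4 tested Frizzled genes overlapped between the groups. Fzd2 averaged 37.3 ± 1.94 FPKM in Blebbistatin libraries and 37.7 ± 5.36 FPKM in Control libraries (SD, n = 3 each), and Fzd5 averaged 26.7 ± 1.56 FPKM in Blebbistatin libraries and 28.4 ± 1.21 FPKM in Control libraries. Fzd6, known for planar polarity in skin, averaged 19.7 ± 1.77 FPKM in Blebbistatin libraries and 18.8 ± 1.45 FPKM in Control libraries, and Fzd3, its partner in that role, 5.57 ± 0.57 FPKM in Blebbistatin libraries and 5.39 ± 0.38 FPKM in Control libraries. The log2 fold changes of these 4 lay between -0.09 and 0.06.

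**Figure D4:**
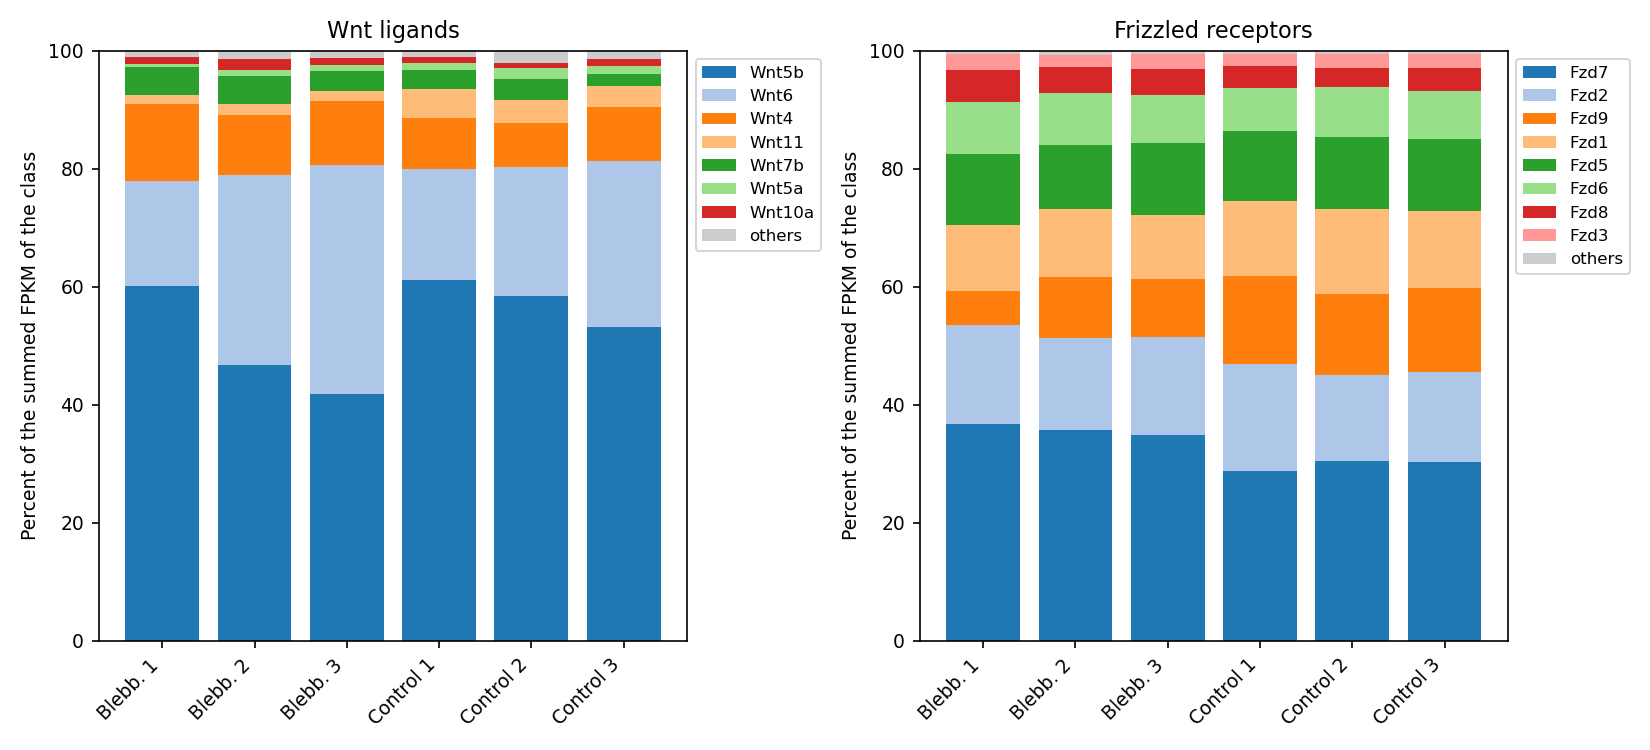
Share of each gene in the summed FPKM of the Wnt ligands (left panel) and of the Frizzled receptors (right panel) in the 3 Blebbistatin and then the 3 Control libraries, in percent. Fzd7 takes 34.9% to 36.8% of Frizzled FPKM in Blebbistatin libraries and 28.8% to 30.5% in Control libraries, and Wnt5b and Wnt6 together make up most of the ligand sum in every library.

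Of the co-receptors, Lrp5 measured 72.3, 69.6 and 69.6 FPKM in Blebbistatin libraries and 76.3, 80.8 and 79.8 FPKM in Control libraries. The groups did not overlap, but the log2 fold change was small, -0.16 (SE 0.081), and limma gave an adjusted p of 0.634. Lrp6, its relative with the stronger role in mouse development, averaged 20.4 ± 1.54 FPKM in Blebbistatin libraries and 21.6 ± 3.06 FPKM in Control libraries (SD, n = 3 each), with overlap.

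Lgr4, a receptor for R-spondins, which protect Frizzled receptors from degradation, measured 10.4, 9.24 and 10.5 FPKM in Blebbistatin libraries and 8.88, 9.45 and 9.47 FPKM in Control libraries. The groups overlapped (limma adjusted p 0.890). R-spondin transcripts were scarce: Rspo1 averaged 0.414 FPKM over the 6 libraries, and Rspo2, Rspo3 and Rspo4 lay below 0.1 FPKM.

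Sfrp1, which binds and holds back Wnt proteins, was by far the most abundant of the genes (chr8:23411502-23449632, plus strand, mm10). It stood at 254, 336 and 330 FPKM in Blebbistatin libraries, against 399, 406 and 415 FPKM in Control libraries. The 3 Control values lay close together and above all Blebbistatin values, of which Blebbistatin 1 was the lowest. The mean was 307 ± 45.9 FPKM in Blebbistatin libraries and 406 ± 7.98 FPKM in Control libraries (SD, n = 3 each). On the log2 scale the fold change was -0.41 (SE 0.13, limma adjusted p 0.286), and -0.29 without Blebbistatin 1. The end bud marker sum, 511 to 622 FPKM in Blebbistatin libraries and 732 to 810 FPKM in Control libraries, lay apart in the same direction as Sfrp1 and Fzd9, and its part in them was not tested.

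Sfrp1 made up 96.5% ± 1.01 of the summed FPKM of the 10 secreted inhibitors in Blebbistatin libraries and 97.7% ± 0.28 in Control libraries. Dkk3, a Dickkopf relative that is not a typical Wnt inhibitor, averaged 7.97 ± 1.45 FPKM in Blebbistatin libraries and 6.80 ± 1.24 FPKM in Control libraries, and Sfrp2 averaged 2.66 ± 0.23 FPKM in Blebbistatin libraries and 2.79 ± 0.15 FPKM in Control libraries (SD, n = 3 each). Both overlapped between the groups. Dkk1, Dkk2, Dkk4, Frzb, Wif1 and Sfrp5 averaged below 0.1 FPKM.

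**Figure D5:**
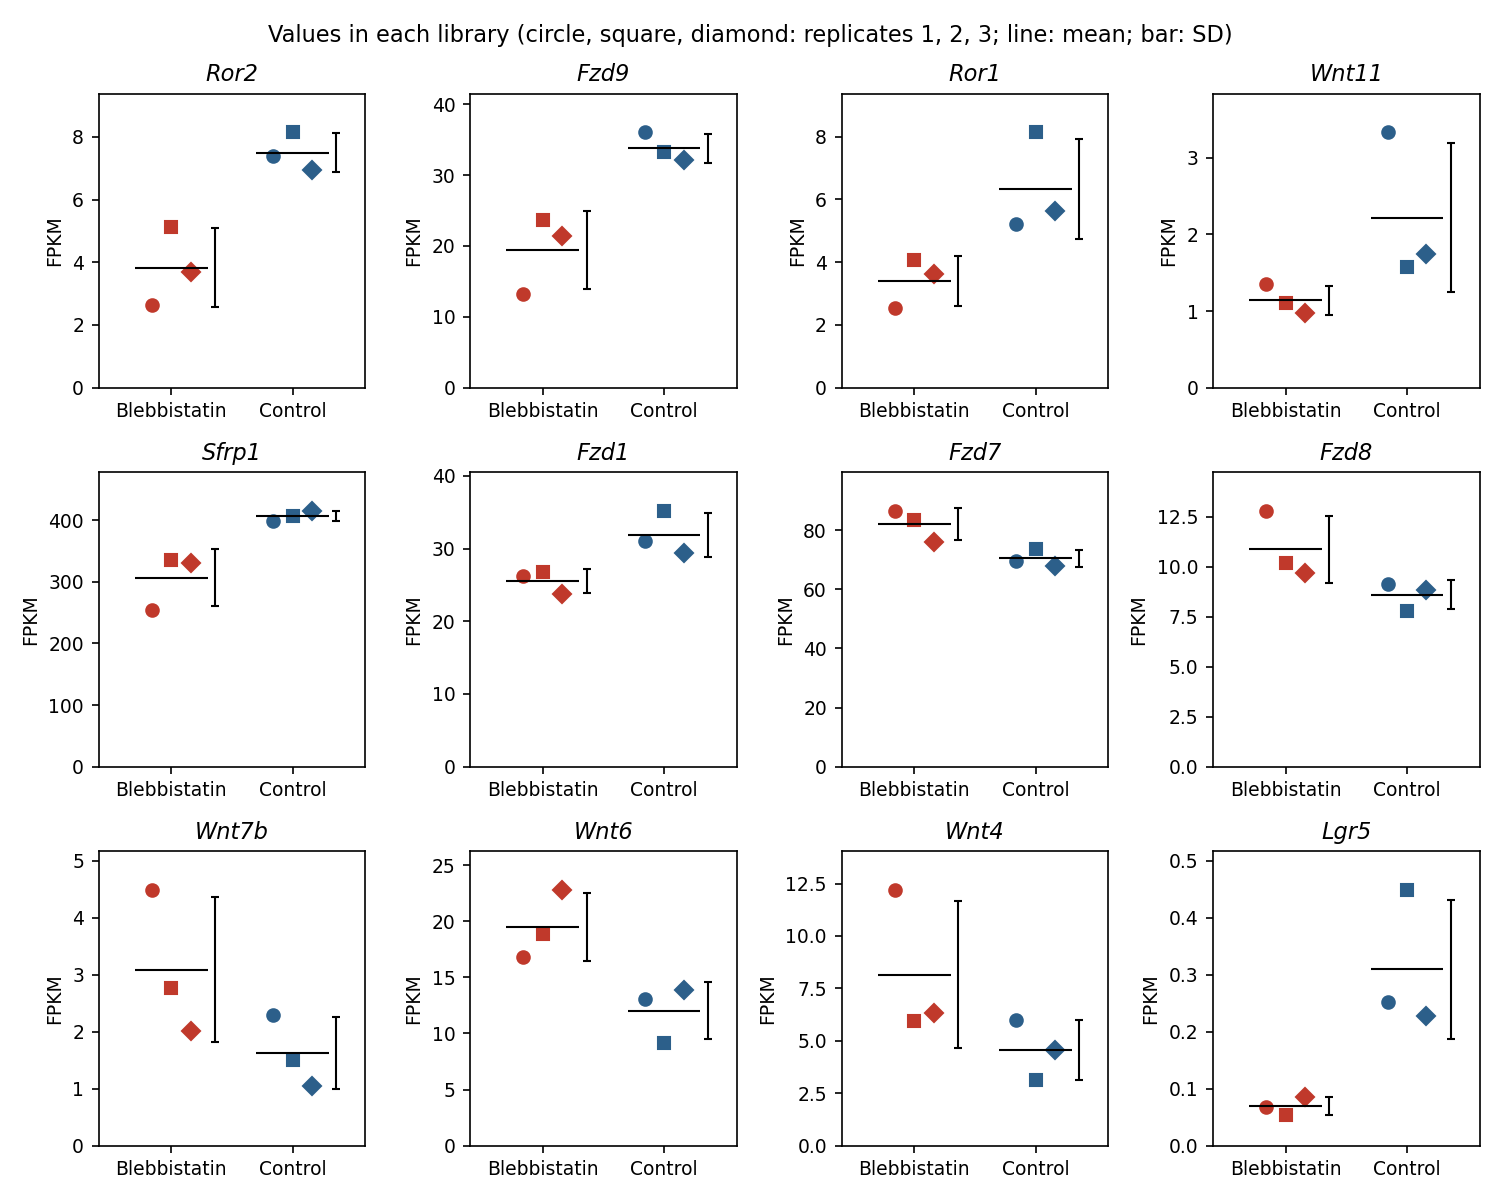
FPKM in each library of the 11 genes at an unadjusted limma p under 0.05, ordered from the lowest to the highest log2 fold change, and of Lgr5; Blebbistatin is on the left and Control on the right of each panel, with circle, square and diamond for replicates 1, 2 and 3, a line for the mean and a bar for the SD. The groups are apart in all panels but those of Wnt7b and Wnt4.

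Znrf3, Rnf43 and Nkd1, feedback regulators that beta-catenin is known to switch on, had no unadjusted p under 0.05. On a further list of genes activated by beta-catenin, Nkd2 and Kremen1 had lower means in Blebbistatin libraries (unadjusted limma p 0.0378 and 0.0153). Their adjusted p were 0.473 and 0.318. Apcdd1, on the same list, had a higher mean (unadjusted limma p 0.0767). Axin2, the most widely used target of the pathway, lay at 0.817, 0.755 and 0.681 FPKM in Blebbistatin libraries and 0.766, 0.731 and 0.569 FPKM in Control libraries. This is 67 to 102 estimated fragments per library, and the ranges overlapped. Znrf3, a ligase that removes Frizzled receptors, measured 5.01, 4.54 and 4.57 FPKM in Blebbistatin libraries and 4.34, 4.72 and 4.21 FPKM in Control libraries. Rnf43, the other such ligase, measured 3.48, 3.56 and 3.64 FPKM in Blebbistatin libraries and 3.84, 4.15 and 3.86 FPKM in Control libraries, without overlap but with a log2 fold change of only -0.12 (SE 0.087, limma adjusted p 0.850). Nkd1, which binds Dishevelled, averaged 1.11 ± 0.31 FPKM in Blebbistatin libraries and 1.32 ± 0.26 FPKM in Control libraries (SD, n = 3 each), with overlap.

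Lgr5 and Fzd10, both below 1 FPKM, are singled out after their values were seen. Lgr5, a beta-catenin target and stem cell marker of the gut, lay at 0.0687, 0.0541 and 0.0861 FPKM in Blebbistatin libraries, against 0.252, 0.449 and 0.227 FPKM in Control libraries, which is 7 to 69 fragments per library. Fzd10 lay at 0.683, 0.561 and 0.612 FPKM in Blebbistatin libraries, against 0.431, 0.291 and 0.307 FPKM in Control libraries, or 26 to 57 fragments. The groups were apart for both genes.

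Among the 31 genes with means below 1 FPKM, the groups were apart for Fzd10 (above) and for Lgr5, Lgr6 and Wnt5a (below), against 10.4% of 6868 genes in that range. With a pseudocount of 0.1 and no filter, an alternative chosen after seeing the data, the log2 fold change was -1.24 for Lgr5 (SE 0.23, limma adjusted p 0.213) and 0.71 for Fzd10 (SE 0.19, limma adjusted p 0.342). With the pseudocount of 1 and no filter these were -0.29 for Lgr5 and 0.27 for Fzd10, so the size at such levels depends on the pseudocount. In the fit with the pseudocount of 0.1, 12 of the 59 Wnt genes above 0 had an unadjusted p under 0.05, against 8.33% of 18408 genes. None had an adjusted p under 0.05 in the same fit, against 0.00543%. Axin2 had a log2 fold change of 0.12 there (SE 0.19).

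In the destruction complex, which tags beta-catenin for breakdown, the scaffold Axin1 measured 31.4, 30.8 and 29.1 FPKM in Blebbistatin libraries and 29.1, 27.5 and 25.3 FPKM in Control libraries. The Blebbistatin values were above by a narrow margin (log2 fold change 0.15, SE 0.087, limma adjusted p 0.709). Apc, the other large scaffold, averaged 11.7 ± 1.18 FPKM in Blebbistatin libraries and 10.4 ± 1.31 FPKM in Control libraries (SD, n = 3 each), with overlap.

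Tcf7l1, which mostly represses Wnt targets, was the most abundant of the Tcf and Lef factors, at 52.4, 52.3 and 42.6 FPKM in Blebbistatin libraries and 53.5, 56.5 and 47.1 FPKM in Control libraries. Tcf7l2 averaged 7.87 ± 0.24 FPKM in Blebbistatin libraries and 8.73 ± 1.75 FPKM in Control libraries, and Tcf7 averaged 2.29 ± 0.46 FPKM in Blebbistatin libraries and 2.15 ± 0.29 FPKM in Control libraries (SD, n = 3 each). These 3 overlapped between the groups. Lef1, the activator used in many ectodermal organs, lay at 0.0201, 0.165 and 0.0205 FPKM in Blebbistatin libraries and 0.127, 0.199 and 0.0692 FPKM in Control libraries. Exons of Tcf7l1 overlap those of Gm15401 on the opposite strand, which had at most 0.233 FPKM.

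At the level of transcripts, none of 38 tested transcripts of these genes passed, against 0.00692% of 14460 transcripts, and 10 had an unadjusted limma p under 0.05, against 8.08%. The share of a transcript in the sum of its gene could be tested for 15 transcripts of 6 of the genes (Axin1, Fzd5, Fzd6, Tcf7l1, Tcf7l2 and Wnt5b). None of these passed, as none of all 4997 shares did (0.0%), and none had an unadjusted p under 0.05, against 4.66%. The lowest p belonged to NM_001142921 of Tcf7l2, at 14.3%, 13.9% and 9.58% of the gene in Blebbistatin libraries and 0.000765%, 7.49% and 7.83% in Control libraries (limma adjusted p 0.962). Its near-zero share in Control 1 is an estimate for 1 of 8 transcripts of that gene that differ little from each other.

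Another 105 Wnt pathway genes of 5 lists were tested, and none passed. Nkd2, Kremen1 and Apcdd1 each stand in more than 1 list and enter the counts of every list they stand in. The 105 hold no gene repeatedly. At an unadjusted p under 0.05 there were 23 (21.9%), 8 higher and 15 lower, against 9.36% of all genes tested, 4.46% higher and 4.9% lower. The 25 tested genes of the destruction complex and Dishevelled had 1 higher and 2 lower, with a median log2 fold change of 0.02, and the 21 nuclear cofactors of beta-catenin had 0 in either direction, with a median of -0.01. Of 22 genes of planar polarity and other beta-catenin-independent branches, 1 was higher and 2 lower (13.6%), with a median of -0.02. Over all genes tested the median was 0.01.

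Of the destruction complex list, Amer1, which binds Apc at the membrane, averaged 7.08 ± 0.61 FPKM in Blebbistatin libraries and 5.26 ± 0.30 FPKM in Control libraries (SD, n = 3 each; log2 fold change 0.37, SE 0.093, limma adjusted p 0.195). Dact3 and Nkd2, which both bind Dishevelled, had lower means in Blebbistatin libraries. Dact3 averaged 2.80 ± 0.14 FPKM in Blebbistatin libraries and 3.52 ± 0.17 FPKM in Control libraries (SD, n = 3 each; limma adjusted p 0.394), and Nkd2 averaged 44.7 ± 4.27 FPKM in Blebbistatin libraries and 52.6 ± 1.23 FPKM in Control libraries (limma adjusted p 0.473).

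Of the polarity list, Nfatc4, a calcium-regulated transcription factor, had the smallest p. It measured 5.85, 4.34 and 4.93 FPKM in Blebbistatin libraries and 7.17, 5.82 and 8.02 FPKM in Control libraries, with a narrow overlap (log2 fold change -0.40, SE 0.13, limma adjusted p 0.328). Ryk, a Wnt receptor used beside the Ror pair, measured 42.3, 40.0 and 36.7 FPKM in Blebbistatin libraries and 35.9, 32.9 and 29.3 FPKM in Control libraries, the opposite direction to Ror1 and Ror2. Its groups did not overlap (log2 fold change 0.27, SE 0.10, limma adjusted p 0.412). Daam1, a formin that links Dishevelled to actin, averaged 18.6 FPKM in Blebbistatin libraries and 23.2 FPKM in Control libraries (log2 fold change -0.30, SE 0.12, limma adjusted p 0.490).

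Of 17 tested genes of ligand secretion and extracellular control, 3 were higher and 4 lower at an unadjusted p under 0.05 (41.2%, against 9.36% of all genes tested), with a median log2 fold change of -0.05. Wls, which carries Wnt proteins to the cell surface, measured 76.9, 65.9 and 71.3 FPKM in Blebbistatin libraries and 60.7, 51.8 and 55.6 FPKM in Control libraries. The groups were apart (log2 fold change 0.34, SE 0.10, limma adjusted p 0.259). Sostdc1, a secreted protein that binds Lrp receptors and BMPs, measured 89.8, 113 and 84.9 FPKM in Blebbistatin libraries and 65.4, 61.1 and 59.6 FPKM in Control libraries. It too was apart (log2 fold change 0.61, SE 0.12, limma adjusted p 0.104). Lrp4, the receptor through which Sostdc1 acts in teeth, averaged 11.1 ± 0.96 FPKM in Blebbistatin libraries and 14.5 ± 0.60 FPKM in Control libraries (SD, n = 3 each; limma adjusted p 0.193). Igfbp4, a secreted binding protein of insulin-like growth factors that can also hold back Wnt signalling, averaged 88.6 ± 13.9 FPKM in Blebbistatin libraries and 120.6 ± 12.3 FPKM in Control libraries (SD, n = 3 each; limma adjusted p 0.281).

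Among 23 tested genes that beta-catenin activates in various tissues, 3 were higher and 9 lower at an unadjusted p under 0.05 (52.2%, against 9.36% of all genes tested), and the median log2 fold change was -0.15. Ccnd2, a cyclin of the G1 phase, measured 258, 246 and 217 FPKM in Blebbistatin libraries and 166, 156 and 135 FPKM in Control libraries, and had the lowest adjusted p of the 105 (log2 fold change 0.66, SE 0.12, limma adjusted p 0.0785). Mycn, a growth-promoting transcription factor, was also higher, at 14.5, 11.9 and 9.08 FPKM in Blebbistatin libraries and 7.18, 6.60 and 4.77 FPKM in Control libraries. Edar, the ectodysplasin receptor of ectodermal organs, lay at 0.971, 2.24 and 2.42 FPKM in Blebbistatin libraries, against 4.38, 4.83 and 4.29 FPKM in Control libraries. Its log2 fold change was -0.98 (SE 0.20, limma adjusted p 0.121). Id2, an inhibitor of helix-loop-helix factors, averaged 99.1 ± 12.6 FPKM in Blebbistatin libraries and 141 ± 8.23 FPKM in Control libraries (SD, n = 3 each). The end bud marker sum moved with the lower genes of this list too, and its part was not tested. The list thus held genes on both sides, and each of these genes is known to answer to other pathways as well.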

How the data were processed

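RNA-seq libraries of 3 Blebbistatin and 3 Control samples were used. The build was mm10 and the listed tools are Cufflinks 2.2.1, Bowtie2 2.2.3 and TopHat2 2.0.13, per the submitters' processing notes. The authors deposited FPKM per gene and per transcript, per the file headers. A column named BB was read as Blebbistatin, and 1 without a number as replicate 1. FPKM values are scaled to the library total, so no count model was used, and depth and fragments per gene are estimates from the smallest step of single-transcript genes.

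Genes with a mean of at least 1 FPKM (11540) entered limma 3.58.1 (R 4.3.3) as log2(FPKM + 1) (empirical Bayes with trend, treatment as the only term), adjusted by Benjamini-Hochberg over all of them at 0.05. Transcripts were tested likewise. For shares, limma took arcsine square root values, of genes with a mean of at least 5 FPKM and transcripts of mean share 0.05 to 0.95. The tests were checked on simulated data. The members and the lists were chosen with earlier results of these data known. Every tested member is named, with all 6 values where the unadjusted p was under 0.05, the groups did not overlap or the gene led its class; up to 4 genes of smallest p were eligible per further list. Genes share exons as given by the deposited annotation. With 3 libraries against 3, an exact permutation test of 1 gene cannot give a p below 0.1, so none was used. Alternatives were other filters, pseudocounts and scalings, array weights, a replicate block and leaving out each library. One list of markers of another cell type is not reported here.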

Additional observations from a re-analysis of the deposited data

How the results depend on the processing

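Across the alternatives, 16 for 21 of the tested Wnt genes and 15 for the 9 with a mean below 5 FPKM, 23 of the 30 tested Wnt genes kept the sign of their fold change, among them all 11 at an unadjusted p under 0.05. None of the 30 passed the adjusted threshold except with the replicate block, where 2 did, against 1.25% of all genes tested. For 7 genes the sign turned. With array weights the log2 fold change was 0.040 for Fzd2 and -0.017 for Fzd3. Leaving out 1 library gave -0.071 to 0.105 for Fzd2, -0.022 to 0.103 for Fzd3, -0.168 to 0.002 for Tcf7l1, -0.041 to 0.164 for Tcf7, -0.173 to 0.023 for Lrp6, -0.211 to 0.391 for Wnt5b and -0.058 to 0.154 for Porcn.

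Genes past the threshold, 9 in all, were 1 with no filter, 27 with a minimum of 5 FPKM, 14 with quantile normalization, 2 with median-of-ratios rescaling, 57 with array weights, and 1 to 13 when 1 library was left out. With a pseudocount of 0.1 and no filter, chosen after seeing the data, the count was 1, and 1 with the replicate block added. The Wnt genes at an unadjusted p under 0.05 were 7 with a minimum of 5 FPKM, where fewer genes were tested, and 7 to 13 when 1 library was left out. For these fits the share of all genes is not given here. Of the other Wnt pathway genes 1, Ccnd2, passed with quantile normalization and 1, Ccnd2 again, with array weights. Transcripts past the threshold were 9 with no filter, 2 with a minimum of 5 FPKM, 3 with quantile normalization and 1 to 11 when 1 library was left out; transcript shares were 0 to 2. The cause of these shifts was not tested.

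Replicate numbers did not meet the rule for pairing, since the deviations of same-numbered libraries correlated at 0.18, 0.09 and 0.25, although each Blebbistatin library correlated best with its own number. With the replicate block, 144 of 11540 genes (1.25%) passed. Among them were 2 of the 30 tested Wnt genes, Ror1 (limma adjusted p 0.0374) and Wnt7b (0.0418). So were 2 of the other Wnt pathway genes, Ccnd2 and Mycn. At an unadjusted p under 0.05 there were 13 of the 30 in that fit, against 16.3% of all genes tested. Low levels limit Lgr5, Fzd10, Axin2 and Wnt11, which rest on 7 to 69, 26 to 57, 67 to 102 and 73 to 261 estimated fragments per library.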
